A study of Macaca mulatta with 8 samples.

Results

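IL7R (ENSMMUG00000001676) encodes CD127, the alpha chain of the interleukin-7 receptor, and is the RNA of a protein on which 3 of the 4 cell populations of this series were sorted. It was taken by its symbol, as 1 gene of 16429 in the deposited count table. Its level is described here by sort, by the classes, clusters and finer names the authors gave to cells, and jointly with FOXP3 (ENSMMUG00000008624) and IL2RA (ENSMMUG00000015151).

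Interleukin-7 keeps resting T cells alive. It binds CD127 paired with the common gamma chain, encoded by IL2RG, and signals through the kinases JAK1 and JAK3 to STAT5, which raises survival genes such as BCL2 and feedback inhibitors such as CISH and SOCS1. Regulatory T cells (Tregs), the CD4-positive cells that restrain immune responses, carry FOXP3 and much CD25, the alpha chain of the interleukin-2 receptor encoded by IL2RA, and are known for low surface CD127. Low CD127 with high CD25 is therefore the usual gate by which live Tregs are collected.

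The series followed Tregs in rhesus macaque blood after adoptive transfer, with droplet-based RNA sequencing of single cells at day 3 and day 20. Mononuclear cells were frozen, thawed together, enriched for CD4 with magnetic beads and sorted by flow cytometry, and each of the 4 populations gave 1 library on each of the 2 days. The first population was CFSE-positive, with no CD3, CD4, CD25 or CD127 gate named in its label, and these are taken as the transferred cells because the series title names transferred Tregs. CFSE is a dye that is loaded into cells and thins out as they divide. The others were CD3-positive CD4-positive cells gated as CD25high CD127low, the endogenous Treg phenotype, as CD127-positive CD25-positive, or as CD127-positive CD25-negative. No label names the animal or any treatment behind a library, so day, animal and library cannot be told apart. With 1 library per population and day there was no replicate and no test, and intervals below are at 95% for counting error alone.

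The 8 libraries held 25397 cells and 67627231 UMIs (counted RNA molecules), with 1149 to 4751 cells and 2992787 to 12149559 UMIs each and a median of 2131 to 3095 UMIs per cell. Summed T cell markers stood at 1633 to 2910 CPM (UMIs of a gene over all UMIs of the library, on the usual CPM scale) in every library and CD8 markers at 3.68 CPM or less, while CD4 itself was caught at only 3.47 to 7.29 CPM. Treg markers summed to 1208 and 560.0 CPM in the CFSE-positive libraries of day 3 and day 20 and to 532 and 423 CPM in CD25high CD127low cells. They came to 178 to 179.5 CPM in CD127-positive CD25-positive cells and to at most 43.9 CPM in CD127-positive CD25-negative cells. Natural killer cell markers reached 88.8 and 87.4 CPM in the CD127-positive CD25-negative libraries, mainly TYROBP, against 5.76 to 22.3 CPM elsewhere. B cell markers summed to 106 CPM and monocyte markers to 145 CPM, mainly CST3, in the CFSE-positive library of day 3, where IL7R was lowest, against 17.1 to 59.4 CPM and 16.3 to 27.5 CPM in the other libraries of that day. On day 20 the CFSE-positive library had 40.8 and 72.5 CPM, against 22.0 to 49.2 CPM and 12.7 to 60.8 CPM. Red cell markers summed to 306 to 1559 CPM on day 3 and to 126 to 147 CPM on day 20. The part of these markers in the IL7R differences was not tested. Libraries shared 382 barcodes, carried by 767 cells, with 2 to 31 per pair of libraries over 28 pairs, and 5 of the CFSE-positive cells with an IL7R UMI on day 3 and 0 on day 20 carried one.

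IL7R RNA was lowest in transferred cells, intermediate in the CD25high CD127low sort and highest in both CD127-positive sorts, on day 3 and on day 20. On day 3 it stood at 13.4 CPM (11.4 to 15.6) in CFSE-positive cells. The CD25high CD127low library had 404 CPM (392 to 416). CD127-positive CD25-positive cells had 823 CPM (804 to 842), and CD127-positive CD25-negative cells had 781 CPM (762 to 802). The order of these libraries was therefore the order of the gates for CD127, except for the transferred cells, whose label names no CD127 gate and which stood lowest.

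Day 20 repeated that order at higher values. CFSE-positive cells had 32.1 CPM (26.0 to 39.2), and the CD25high CD127low library had 459.9 CPM (444 to 477). CD127-positive CD25-positive cells stood at 1008 CPM (989 to 1027) and CD127-positive CD25-negative cells at 890.1 CPM (870.0 to 911). The counting intervals of neighbours in the order did not overlap on either day, but the spread between libraries of 1 population is not known, and the nearest neighbours, the CD127-positive sorts, differed by a log2 ratio of only 0.075 (0.026 to 0.12) on day 3 and 0.18 (0.14 to 0.22) on day 20.

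**Figure D1:**
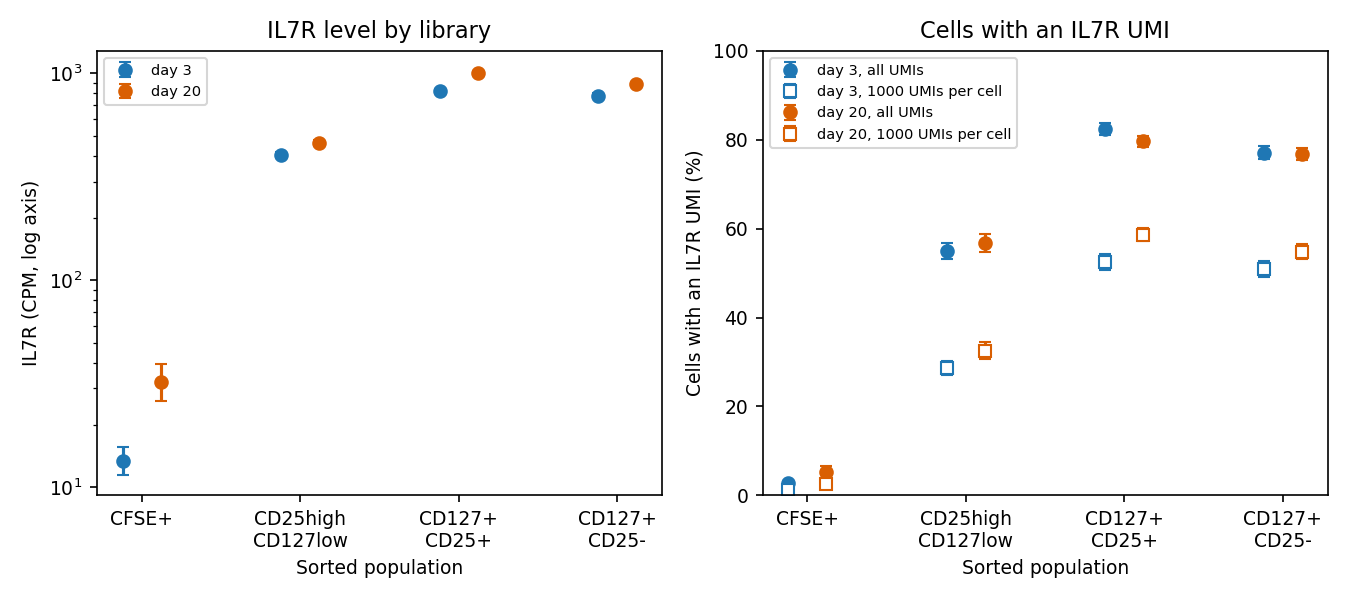
Left, IL7R in CPM on a log axis, and right, the percent of cells with an IL7R UMI as deposited (filled circles) and after thinning each cell to 1000 UMIs (open squares), by sorted population and day. Each point is 1 library and bars are 95% counting intervals; CFSE-positive libraries lie at 13.4 and 32.1 CPM, and the other 6 between 404 and 1008 CPM.

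IL7R was among the genes that separated transferred cells most from each sort. Against CD25high CD127low cells it was 30.1-fold lower on day 3 (log2 ratio -4.91, -5.15 to -4.69) and 14.3-fold lower on day 20 (-3.84, -4.15 to -3.55). The ratio to CD127-positive CD25-positive cells was -5.94 (-6.17 to -5.72) on day 3 and -4.97 (-5.28 to -4.68) on day 20. To CD127-positive CD25-negative cells it was -5.86 (-6.10 to -5.64) and -4.79 (-5.10 to -4.50). The gap to the CD127-positive sorts was thus 61.4-fold and 58.2-fold on day 3 and 31.4-fold and 27.7-fold on day 20.

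To place IL7R among all genes, log2 ratios of CPM with 10 CPM added to both sides were ranked over genes that reached 50 CPM in either library on each day, and a gene was called where its ratio passed 2-fold in 1 direction on both days. IL7R was called lower in CFSE-positive cells in all 3 comparisons, where 1.24% of 1851 genes were called lower against CD25high CD127low cells, 1.31% of 1904 against CD127-positive CD25-positive cells and 1.62% of 1913 against CD127-positive CD25-negative cells. It had the lowest ratio of all genes in these comparisons on both days, with 1 exception: against CD25high CD127low cells on day 20, ITGB1, an integrin chain of memory T cells, and S100A4, which binds calcium and is high in memory T cells, were lower still. The 3 comparisons share the CFSE-positive libraries, so they are not separate evidence.

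**Figure D2:**
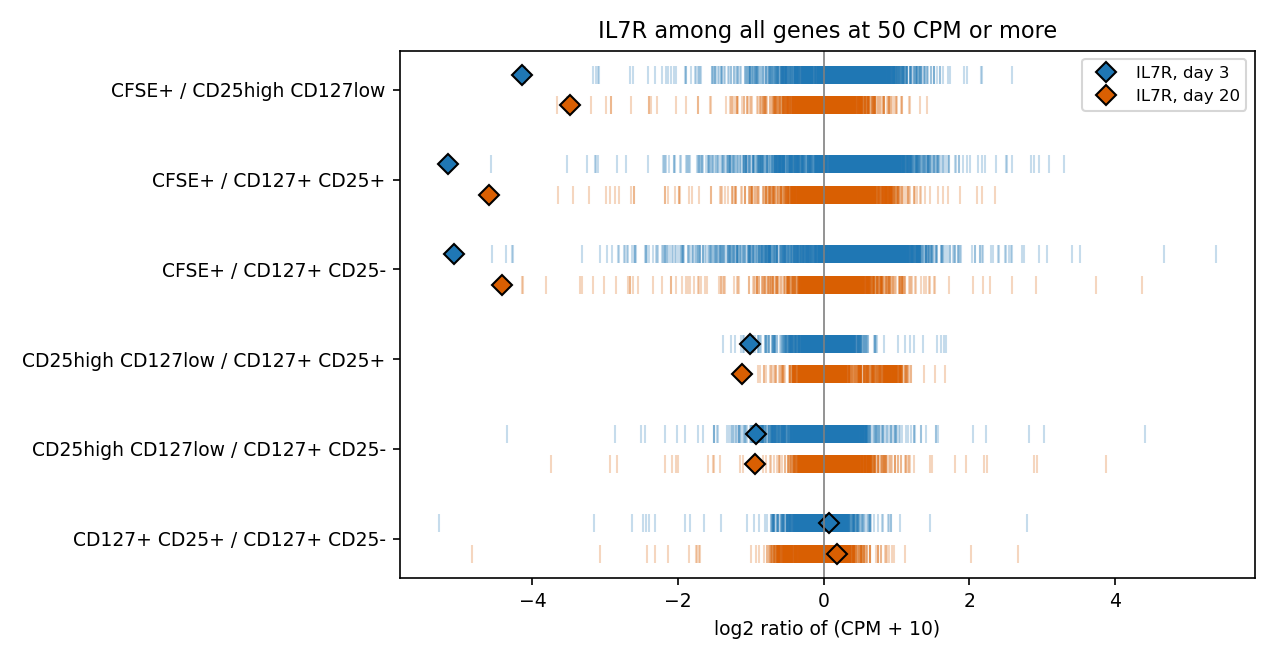
Log2 ratio of (CPM + 10) for every gene at 50 CPM or more (ticks) and for IL7R (diamonds), for the 6 pairs of populations, first over second, on day 3 and day 20. IL7R lies at the low end in the 3 comparisons of CFSE-positive cells, between -3.48 and -5.15, and near 0 between the CD127-positive sorts.

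Between sorts that were gated on CD127, the RNA differed much less than between these sorts and transferred cells. CD25high CD127low cells held 2.04-fold less IL7R than CD127-positive CD25-positive cells on day 3 (log2 ratio -1.03, -1.08 to -0.97) and 2.19-fold less on day 20 (-1.13, -1.19 to -1.07). IL7R was the only gene called lower in that comparison, so 0.0582% of 1718 genes were called. It stood in place 10 from the lowest on day 3, behind RPS29, LOC717763 and 7 genes without a symbol, and lowest on day 20. The call rests on a ratio just past 2-fold and was lost with 30 CPM added to both sides.

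Against CD127-positive CD25-negative cells, the CD25high CD127low sort held 1.94-fold less IL7R on day 3 (-0.95, -1.01 to -0.90) and 1.94-fold less on day 20 (-0.95, -1.01 to -0.89). This fell short of the 2-fold rule, by which 0.684% of 1755 genes were called lower. FOXP3 and IL2RA were called higher in CD25high CD127low cells in both comparisons, where 0.349% and 0.741% of genes were called higher. IL2RA stood at 317 and 212 CPM in this sort on day 3 and day 20. It was at 97.0 and 86.5 CPM in CD127-positive CD25-positive cells and at 5.44 and 5.16 CPM in CD127-positive CD25-negative cells. The RNA of the other gating protein, CD25, therefore ran over a wider range across the 3 gated sorts than that of CD127. Between the CD127-positive sorts, IL2RA was called higher in the CD25-positive one, where 0.121% of 1657 genes were called higher and 0.604% lower, and IL7R was not called.

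Counted by cells as deposited, IL7R was caught in a majority of the cells sorted as CD127low. This share differed between the authors' classes, as given below. At least 1 IL7R UMI was found in 55.0% (53.3 to 56.7) of CD25high CD127low cells on day 3 and in 56.7% (54.7 to 58.7) on day 20. In the CD127-positive CD25-positive sort the share was 82.4% (81.0 to 83.8) and 79.6% (78.4 to 80.7), and in CD127-positive CD25-negative cells 77.1% (75.5 to 78.6) and 76.8% (75.4 to 78.2). CFSE-positive cells had a share of 2.73% (2.25 to 3.27) on day 3 and 5.22% (4.01 to 6.67) on day 20. A share moves with depth, so each cell was also thinned to 1000 UMIs, leaving out 17 CFSE-positive cells of day 3 and 6 cells in each CD127-positive library of day 20, which have fewer.

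After thinning, the shares were 1.19, 28.7, 52.5 and 51.0% on day 3 in CFSE-positive cells, CD25high CD127low cells, the CD25-positive and then the CD25-negative CD127-positive sort. On day 20 they were 2.44, 32.5, 58.7 and 54.8% in the same order. For CD127-positive CD25-positive cells the deposited share was lower on day 20 and the thinned share and the CPM were higher, so no order of days is read from the deposited share.

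The cells with an IL7R UMI differed in how many they held. On day 3 such cells held a mean of 1.44 IL7R UMIs in the CFSE-positive library, 2.37 in CD25high CD127low, 3.03 in CD127-positive CD25-positive and 2.52 in CD127-positive CD25-negative libraries. The means of day 20 were 1.60, 2.28, 2.80 and 2.57. The highest count in a cell was 5 in each CFSE-positive library, 13 in each CD25high CD127low library and 13 to 17 in the CD127-positive ones. In the CFSE-positive library of day 3, 77 cells held 1 UMI, 26 held 2, 7 held 3, 2 held 4 and 1 held 5, and 4029 held none.

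Free RNA in droplet data can give a UMI to a cell that does not express the gene, so the share was also taken in cells that should lack IL7R or hold little of it. Of 15 cells with at least 3 UMIs of B cell markers and none of the CD3 genes, 2 held an IL7R UMI (13.3%, 1.66 to 40.5), at a median of 2151 UMIs per cell. Of 22 such cells with monocyte markers, 4 did (18.2%, 5.19 to 40.3), at a median of 2873. By the same rule 15 cells had red cell markers, and 13 of them did (86.7%, 59.5 to 98.3), at 929.6 CPM of IL7R, so the lack of a CD3 UMI did not by itself mark a cell without IL7R. Only 4 of the B cell and monocyte marker cells and 1 of the red cell marker cells came from the CFSE-positive libraries, and these held no IL7R UMI. The background in the CFSE-positive libraries, at median depths of 2796 UMIs on day 3 and 2588 on day 20, could therefore not be measured from so few cells, and their share with an IL7R UMI is not by itself read as expression. It was uneven within these libraries, as given below by finer name.

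The authors' classes, called Tconv, endoTreg and transTreg, split the sorts. Over all libraries IL7R was 841 CPM (832 to 849) in Tconv, 203 CPM (194 to 212) in endoTreg and 17.0 CPM (14.9 to 19.2) in transTreg cells. The deposited gene table marks IL7R, FOXP3 and IL2RA among 3052 genes used to order the cells, so these levels, and those by cluster and finer name, are a description of cells grouped partly by IL7R itself.

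Most of the IL7R RNA in the CD127low sort lay in cells the authors classed as Tconv. On day 3 these made up 60.9% of CD25high CD127low cells and held 85.2% of the IL7R UMIs, at 585 CPM, while endoTreg cells made up 38.9% and held 14.7%, at 145 CPM. The day 20 library had 57.9% Tconv cells with 79.7% of IL7R UMIs, at 638 CPM, and 40.0% endoTreg cells with 19.0%, at 216 CPM. Within this sort, endoTreg cells therefore had a log2 ratio to Tconv cells of -2.01 (-2.13 to -1.89) on day 3 and -1.56 (-1.70 to -1.43) on day 20. FOXP3 went the other way, at 160.2 and 139.9 CPM in endoTreg and 17.5 and 16.9 CPM in Tconv cells.

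Classes of the CD127-positive CD25-positive sort stood apart in the same direction. Tconv cells had 887 and 1057 CPM and endoTreg cells 251 and 322 CPM on day 3 and day 20, with log2 ratios of -1.82 (-2.02 to -1.63) and -1.72 (-1.91 to -1.52). In the CD127-positive CD25-negative sort 73 and 50 cells bore the endoTreg name, at 569 and 351 CPM of IL7R. A FOXP3 UMI was found in 1.37% of these on day 3 and in none of the 50 on day 20, so they lacked the defining RNA of the name. They are set against other endoTreg cells only among the flagged results below.

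Holding the class fixed narrowed the difference between the gates without ending it, with endoTreg cells of the CD127-positive CD25-negative sort left out. Among Tconv cells, CD25high CD127low against CD127-positive CD25-positive gave -0.60 (-0.66 to -0.54) on day 3 and -0.73 (-0.79 to -0.67) on day 20. Among endoTreg cells the same ratio was -0.79 (-1.01 to -0.57) and -0.58 (-0.80 to -0.35). Against CD127-positive CD25-negative cells, the Tconv ratio was -0.43 (-0.49 to -0.37) and -0.50 (-0.56 to -0.43). All of these were under 2-fold and had intervals below 0. Tconv cells of these sorts were not alike in FOXP3. It stood at 17.5 and 16.9 CPM in CD25high CD127low Tconv cells on day 3 and day 20. In those of the CD127-positive CD25-positive sort it was 2.49 and 6.13 CPM, and in the CD25-negative one 0.410 and 0.251 CPM. The part of this in the IL7R ratios was not tested.

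**Figure D3:**
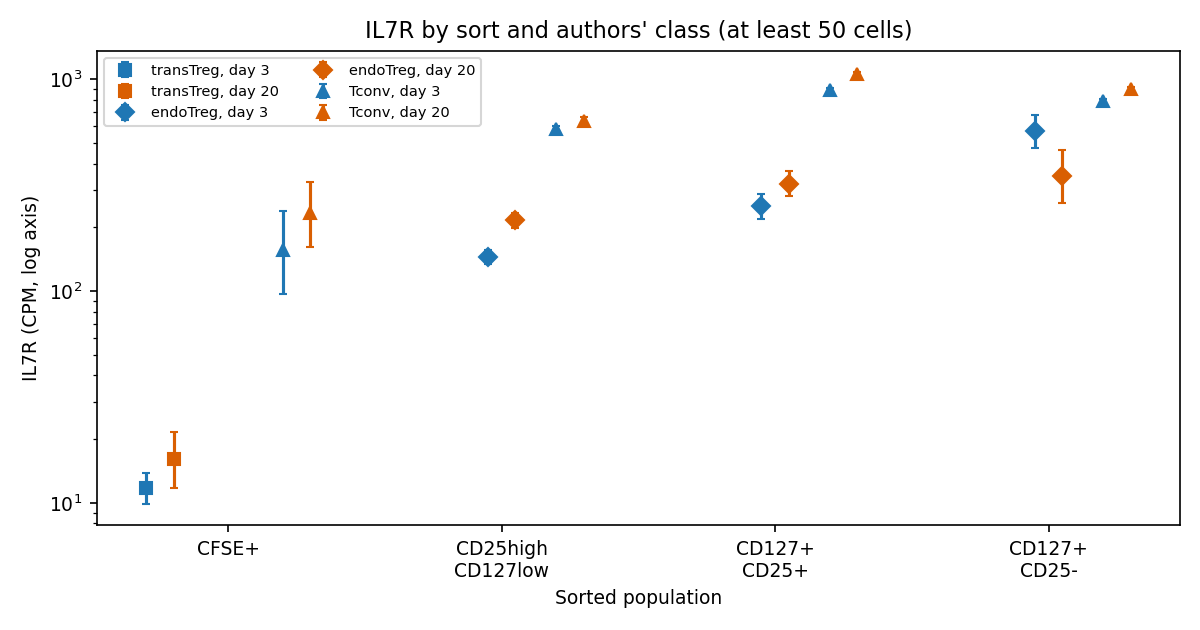
IL7R in CPM on a log axis by sorted population, for the authors' Tconv, endoTreg and transTreg cells with at least 50 cells in a library, on day 3 and day 20; bars are 95% Poisson intervals. In the CD25high CD127low sort Tconv cells lie at 585 and 638 CPM and endoTreg cells at 145 and 216 CPM, and transTreg cells of the CFSE-positive sort lie at 11.8 and 16.1 CPM.

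Within single clusters IL7R was still lower in the CD25high CD127low sort. In cluster 7, which had the most cells, 8576, IL7R in CD25high CD127low against CD127-positive CD25-positive cells was -0.72 (-0.79 to -0.64) on day 3 and -0.74 (-0.83 to -0.64) on day 20. The ratio was steepest in cluster 10, at -1.08 (-1.33 to -0.83) and -1.02 (-1.28 to -0.77). Cluster 9, with the highest IL7R of all, gave the smallest on day 3, -0.14 (-0.25 to -0.03), and -0.38 (-0.51 to -0.25) on day 20. Clusters 3, 4, 6 and 8, the others with at least 50 cells in both libraries, ran from -0.25 to -0.99, and the interval passed 0 only in cluster 4 on day 20 (-0.45, -0.93 to 0.07).

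Over all libraries, the clusters ran from 12.3 CPM (10.4 to 14.5) in cluster 1 to 1135 CPM (1110 to 1161) in cluster 9. Cluster 2 followed at 36.6 CPM. Of the 4129 cells of cluster 1, 4071 came from the CFSE-positive library of day 3, and of the 1095 of cluster 2, 1018 from that of day 20. Clusters 3 and 4, at 194 CPM (182 to 207) and 213 CPM (199 to 227), had overlapping intervals. Clusters 8, 6 and 5 stood at 639, 681 and 717 CPM, cluster 10 at 751 CPM and cluster 7 at 853 CPM. There was thus a gap between clusters 4 and 8 with no cluster in it, and FOXP3, at 201 CPM in cluster 3 and 87.3 CPM in cluster 4, was at 29.3 CPM in cluster 10 and at most 6.37 CPM in clusters 5 to 9.

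**Figure D4:**
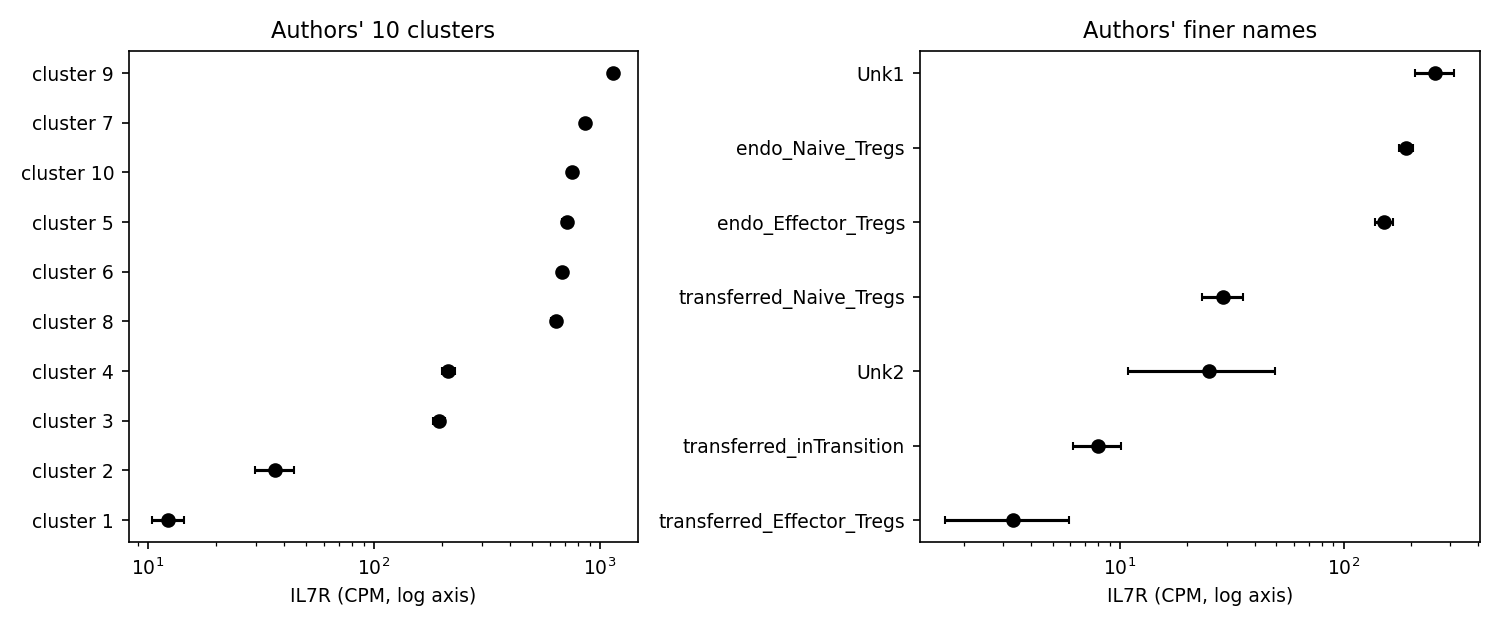
IL7R in CPM on a log axis over all libraries, left for the authors' 10 clusters and right for their 7 finer names, in rising order; bars are 95% Poisson intervals. Clusters run from 12.3 to 1135 CPM, and transferred effector, transition and naive Tregs at 3.31, 7.97 and 29.0 CPM lie below endogenous effector and naive Tregs at 152 and 189.7 CPM.

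The 7 finer names cover 7515 cells. Transferred effector Tregs had the least IL7R, 3.31 CPM (1.65 to 5.93), followed by cells named as in transition at 7.97 CPM (6.15 to 10.2) and transferred naive Tregs at 29.0 CPM (23.3 to 35.7). Endogenous effector Tregs had 152 CPM (139 to 167) and endogenous naive Tregs 189.7 CPM (176 to 204). Within CD25high CD127low libraries the effector and naive names had 126 and 159 CPM on day 3 and 188 and 263 CPM on day 20. The pooled transferred values mix days and sorts, since 1124 of 1129 effector-named cells came from the CFSE-positive library of day 3 and 985 of 1185 naive-named cells from that of day 20. Within the CFSE-positive library of day 3, naive-named cells had 35.4 CPM (17.7 to 63.4, 123 cells) and effector-named cells 3.03 CPM (1.45 to 5.57).

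A small group that the authors named Unk1 carried much of the IL7R RNA of transferred cells. In the CFSE-positive library of day 3, its 115 cells, 2.78% of the library, held 73 of 163 IL7R UMIs, at 240.2 CPM. At least 1 IL7R UMI was found in 36.5% (27.7 to 46.0) of them, at a median of 2525 UMIs per cell. Transferred effector Tregs of that library had such a UMI in 8 of 1124 cells (0.712%, 0.308 to 1.40), at a median of 2744 UMIs, and cells in transition in 1.67% (1.22 to 2.23). Thinned to 1000 UMIs, the shares were 20.9, 0.178 and 0.673%. IL7R UMIs were therefore not spread evenly over the cells of 1 library. On day 20, 26 Unk1 cells held 23 of 96 IL7R UMIs, at 391 CPM, and the 985 transferred naive Tregs held 54, at 20.9 CPM (15.7 to 27.3).

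Cells with an IL7R UMI in the CFSE-positive libraries, 113 on day 3 and 60 on day 20, were set against the other 4029 and 1089 cells of their library, a comparison chosen after the data were seen. Of 985 genes that reached 100 CPM in either set of cells on each day, 11 (1.12%) passed 2-fold upward on both days and 3 (0.305%) downward, with 10 CPM added. GNLY, a cytotoxic granule protein, had 866 CPM in the cells with IL7R and 46.1 CPM in the others on day 3, and 581 and 34.6 CPM on day 20. GZMB, the protease granzyme B, had 165 and 22.5 CPM and then 246 and 20.5 CPM. S100A4 had 1271 and 299 CPM and then 1326 and 104 CPM, and the other called genes with a symbol were GPR183, ANXA1, ITGB1, HOPX, ITM2A and CD69. FOXP3 was lower, at 77.8 and 263 CPM on day 3 and 50.5 and 131 CPM on day 20, as were CD9 and HMGA1. IL2RA had 412 and 640.1 CPM and then 139 and 314 CPM and was not called.

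By finer name, 42 of these 113 cells of day 3 were Unk1, 45 in transition, 10 transferred naive, 8 transferred effector, 7 endogenous naive and 1 Unk2. A comparison by the same rule, but within 1 class, called 0 of 946 genes (0% higher and 0% lower) in endoTreg cells of the CD25high CD127low sort. It called 0 of 844 in Tconv cells of that sort. These sets held 354 to 1410 cells with an IL7R UMI, and the CFSE-positive libraries were compared whole, with their finer names mixed. The counts of called genes are therefore not read against each other.

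Matching the authors' classes left CFSE-positive transTreg cells far below endoTreg cells of the CD25high CD127low sort. TransTreg cells made up 98.5 and 92.6% of the CFSE-positive libraries and had 11.8 CPM (9.91 to 13.9) on day 3 and 16.1 CPM (11.8 to 21.6) on day 20. Against endoTreg cells of the CD25high CD127low sort the log2 ratio was -3.62 (-3.90 to -3.36) on day 3 and -3.74 (-4.21 to -3.30) on day 20. The matched gap was 12.3-fold and 13.4-fold, where the whole sorts gave 30.1-fold and 14.3-fold. The few CFSE-positive cells classed as Tconv, 51 on day 3 and 63 on day 20, had 156 and 233 CPM and held 12.9 and 35.4% of the IL7R UMIs of their library. On day 20 the CD25high CD127low library held 49 transTreg cells, at 291.5 CPM (206 to 400), beside 216 CPM in its endoTreg cells. Its 64 cells named transferred naive Tregs had 135 CPM (81.2 to 211). The low level thus held for transTreg cells of the CFSE-positive sort, and not for those of the CD25high CD127low sort on day 20.

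IL7R was higher on day 20 than on day 3 in all 4 populations, by less than the 2-fold rule once 10 CPM was added. The log2 ratio of day 20 to day 3 was 1.26 (0.88 to 1.63) in CFSE-positive cells and 0.85 with 10 CPM added to both sides. It was 0.19 (0.12 to 0.26) in CD25high CD127low cells. In CD127-positive cells it was 0.29 (0.25 to 0.34) for the CD25-positive and 0.19 (0.14 to 0.24) for the CD25-negative sort. IL7R was not called in any of these. In CFSE-positive cells 4.09% of 2227 genes were called higher on day 20 and 3.1% lower, and the median ratio over all genes was -0.33. For CD25high CD127low cells 2.54% of 1854 genes were called higher and 0.324% lower. In CD127-positive CD25-positive cells the shares were 0 and 0.112% of 1780 genes, and in CD127-positive CD25-negative cells 0.0572 and 0.114% of 1748. Median ratios over all genes were 0.0065 in CD25high CD127low, 0.13 in CD127-positive CD25-positive and 0.068 in CD127-positive CD25-negative cells.

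Within the transTreg class the day ratio was 0.45 (-0.06 to 0.95), an interval that includes 0. The larger ratio of the whole CFSE-positive sort stood beside a different makeup on the 2 days: transTreg cells held 86.5% of its IL7R UMIs on day 3 and 46.9% on day 20. In endoTreg cells of the CD25high CD127low sort the ratio was 0.57 (0.41 to 0.74), and in the Tconv cells of that sort 0.12 (0.05 to 0.20).

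Over whole libraries, which mix classes, IL7R was lower in cells where either FOXP3 or IL2RA RNA was caught, save in the CD127-positive CD25-negative sort. In the CD25high CD127low library of day 3, the 1731 cells with neither a FOXP3 nor an IL2RA UMI had 561 CPM of IL7R (541 to 582). The 1076 cells with IL2RA only had 306 CPM (288 to 325), the 120 with FOXP3 only 216 CPM (173 to 268) and the 420 with both 129 CPM (111 to 148). On day 20 these 4 kinds of cell had 567, 357, 217 and 212 CPM. The intervals of neighbours in this order did not overlap on day 3, and on day 20 only those of the last 2 did. Tconv cells of this sort kept the order, at 632, 519, 322 and 215 CPM on day 3 and 689, 538, 331 and 289 CPM on day 20. Its endoTreg cells did not, and their range was narrower. They had 190, 143, 161 and 116 CPM on day 3 and 241, 205, 182 and 199 CPM on day 20.

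Other sorts gave the same order of IL7R by these UMIs. In CD127-positive CD25-positive cells with neither, IL2RA only, FOXP3 only and both, IL7R stood at 889, 638, 454 and 171 CPM on day 3 and at 1049, 889, 369 and 353 CPM on day 20. CFSE-positive cells had 48.5, 14.2, 4.71 and 3.59 CPM on day 3 and 58.5, 21.8, 17.3 and 4.73 CPM on day 20, with wide intervals for the last 2. In the CD127-positive CD25-negative sort a FOXP3 UMI was found in only 4 cells on day 3 and 2 on day 20, too few to compare. Its cells with an IL2RA UMI were not lower in IL7R, with 779.6 CPM in 38 such cells and 781 CPM in the rest on day 3, and 1179 CPM in 40 and 887 CPM in the rest on day 20.

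**Figure D5:**
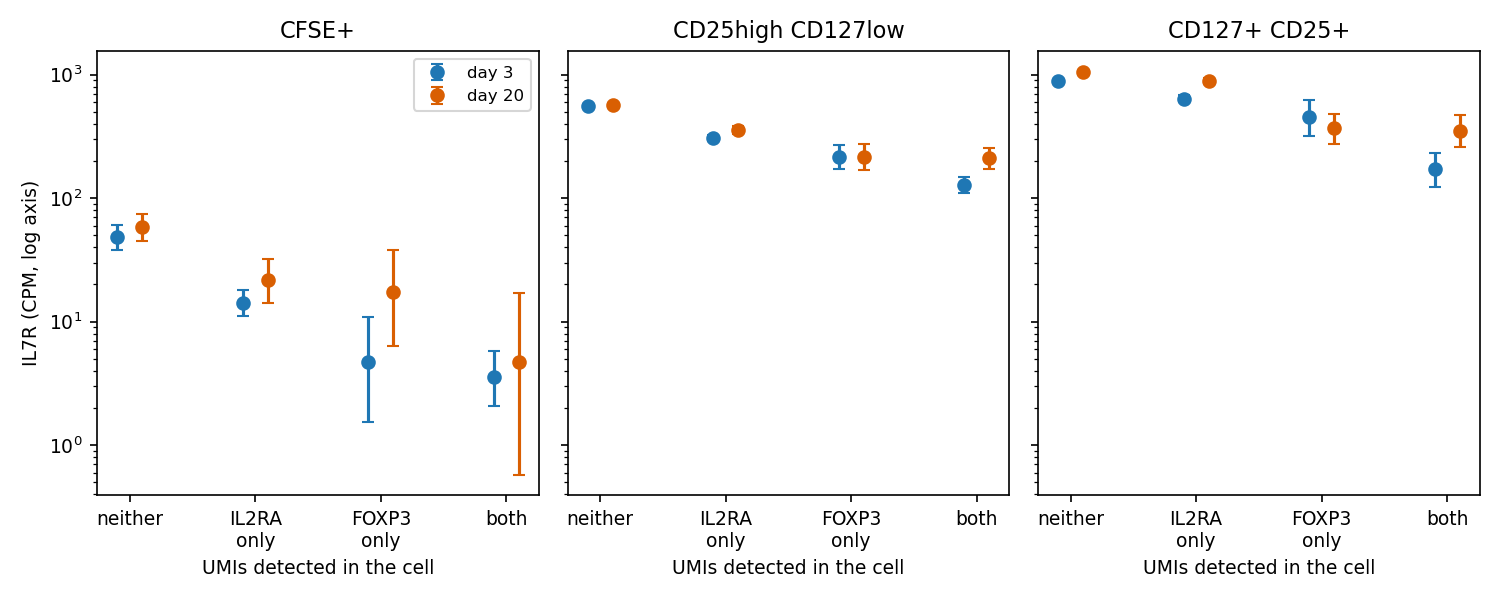
IL7R in CPM on a log axis in cells with neither, IL2RA only, FOXP3 only or both UMIs, in 1 panel for each of 3 sorted populations, on day 3 and day 20; bars are 95% Poisson intervals. In the CD25high CD127low sort the day 3 points run from 561 down to 129 CPM, and in CFSE-positive cells from 48.5 down to 3.59 CPM.

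Cells with a FOXP3 UMI were set against all other cells of their library. The log2 ratio of IL7R was -1.64 (-1.83 to -1.47) on day 3 and -1.22 (-1.44 to -0.998) on day 20 in the CD25high CD127low sort. It was -1.81 (-2.15 to -1.48) and -1.51 (-1.80 to -1.22) in CD127-positive CD25-positive cells and -2.55 (-3.27 to -1.89) and -1.93 (-3.18 to -0.89) in CFSE-positive cells. Of the CD25high CD127low cells with a FOXP3 UMI, 34.3 and 33.8% also held an IL7R UMI on day 3 and day 20, against 59.0 and 60.3% of the others. After thinning to 1000 UMIs, with FOXP3 read from the thinned counts too, those shares were 12.6 and 15.3% against 29.8 and 33.8%.

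Within the endoTreg class the FOXP3 difference was smaller than in whole libraries and varied with the sort. In the CD25high CD127low sort it was -0.35 (-0.60 to -0.10) on day 3 and -0.21 (-0.51 to 0.08) on day 20, and thinned shares were 12.4 against 12.6% and 14.2 against 21.0%. Within the Tconv class of that sort, cells with a FOXP3 UMI had less IL7R, by -1.22 (-1.55 to -0.91) and -1.07 (-1.50 to -0.67). Among endoTreg cells of the CD127-positive CD25-positive sort the ratio was -0.87 (-1.40 to -0.37) on day 3. On day 20 it was -0.23 (-0.73 to 0.25) there. TransTreg cells of the CFSE-positive sort had -2.31 (-3.04 to -1.65) and -0.98 (-2.39 to 0.20). A cell without a FOXP3 UMI may still hold FOXP3 RNA that was not caught, since only 29.0% of all endoTreg cells had one.

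Read as a gate on RNA, IL2RA without IL7R was met most often by transferred cells. It was found in 76.0 and 50.2% of CFSE-positive cells on day 3 and day 20 and by 25.7 and 18.3% of CD25high CD127low cells. In CD127-positive CD25-positive cells it was met by 6.07 and 4.15%, and in CD127-positive CD25-negative cells by 0.296 and 0.163%. The opposite, IL7R without IL2RA, was found in 36.0 and 38.9% of CD25high CD127low cells and in 1.18 and 3.66% of CFSE-positive cells. All 3 RNAs were caught together in 4.18 and 2.73% of CD25high CD127low cells. These shares were taken as deposited, without thinning, and so move with depth.

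Among genes listed around the interleukin-7 pathway, only FOXP3, IL2RA, TCF7 and LEF1 were called between sorts. Of 41 genes in 6 lists, 37 were in the table and 12 to 17 reached 50 CPM in a given comparison. The common gamma chain gene IL2RG was caught at 14.2 to 44.5 CPM over the 8 libraries, and the ligand genes IL7 and TSLP at 0.658 CPM or less. CD4 itself was caught at only 3.47 to 7.29 CPM in these CD4-enriched cells, so low counts are not read as low expression. Among kinases and STATs, JAK1 ran from 184 to 276 CPM and STAT3 from 64.0 to 85.6 CPM, and none of the 3 or 4 tested genes of this list was called between CFSE-positive cells and any sort. JAK3, STAT5A, STAT5B and AKT1, at 21.5 CPM or less in every library, did not reach 50 CPM and were not tested.

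Over the 6 lists, 0 of 14 genes tested were called higher and 1 lower in CFSE-positive against CD25high CD127low cells, beside 0.378% and 1.24% of all genes, with a median ratio of 0.22 on day 3 and 0.06 on day 20 beside 0.38 and 0.06 over all genes. The gene called lower was TCF7, a transcription factor of naive and memory T cells, at 37.9 and 50.5 CPM against 114 and 114 CPM. Against CD127-positive CD25-positive cells, 2 of 15 were higher, FOXP3 and IL2RA, and 2 were lower, TCF7 and LEF1, its relative, beside 0.945% and 1.31% of all genes. Against CD127-positive CD25-negative cells these 4 of 15 were called in the same directions, beside 1.78% higher and 1.62% lower of all genes. FOXO1, a transcription factor known to activate IL7R, stood at 43.7 to 64.4 CPM and ETS1, another regulator, at 325 to 438 CPM in the 8 libraries, and neither was called in any comparison. A call needs 1 direction on both days, which CISH did not have. Its ratio for CFSE-positive cells on day 3 and day 20 was 0.84 and -1.27 against CD25high CD127low cells. It was 1.35 and -2.18 against the CD25-positive and 2.40 and -1.61 against the CD25-negative CD127-positive sort. BCL2 passed 2-fold on day 20 only, at -2.40, -2.86 and -2.85 in the same order.

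In CFSE-positive cells 4 of 17 genes at the 50 CPM threshold were called lower on day 20, beside 3.1% of all genes, and 0 higher, beside 4.09%. They included BCL2, CISH and SOCS1, the 3 of 7 response and feedback genes in the table that reached the threshold. BCL2, which protects cells from apoptosis, fell from 149 to 15.7 CPM. CISH and SOCS1, both inhibitors of cytokine signalling, fell from 379 to 21.7 CPM and from 98.2 to 24.4 CPM. IL2RA fell from 634 to 305 CPM, while IL7R stood at 13.4 and then 32.1 CPM. Which receptor, if any, the falls of BCL2, CISH and SOCS1 follow was not tested. Among CD25high CD127low cells CISH alone of 15 was called lower on day 20, at 208 and 66.6 CPM, beside 0.324% of all genes, and in the CD127-positive sorts 0 of 14 and 0 of 13 were called.

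The genes whose level was most like that of IL7R over the 8 libraries, by Pearson correlation of log2(CPM + 10) among 1982 genes, were BEX4 (0.998), PLA2G16 (0.993), ANXA1 (0.991), TCF7 (0.990) and CYSLTR1 (0.984). PLA2G16, a phospholipase, stood at 7.33 and 28.1 CPM in CFSE-positive cells and at 279 to 469 CPM elsewhere. ANXA1, which encodes annexin A1, stood at 47.2 and 99.2 CPM in CFSE-positive cells and at 479 to 857 CPM elsewhere. All of these correlations are over the same 8 libraries, of which the CFSE-positive pair stands far from the other 6 in IL7R, and are a description only.

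The most opposite genes were PGD (-0.992), DTX2 (-0.989), PRKCQ (-0.986), GLRX (-0.981) and SFR1 (-0.981). DTX2 had 64.8 and 43.4 CPM in CFSE-positive cells and 10.3 to 16.4 CPM elsewhere. PRKCQ, a kinase of T cell receptor signalling, had 80.3 and 77.9 CPM against 41.8 to 51.9 CPM. Over the 10 clusters, among 2226 genes, the likest were CD40LG (0.966), PLA2G16 (0.963), PIP4K2A (0.934), CYSLTR1 (0.906) and PABPC4 (0.887), so that 2 genes were in both sets. CD40LG, the ligand by which helper T cells act on B cells, stood at 2.47 and 1.67 CPM in CFSE-positive cells. It had 35.4 and 50.5 CPM in the CD25high CD127low sort and 56.3 to 84.5 CPM in the CD127-positive sorts.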

How the data were processed

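The authors deposited whole UMI counts for each gene in each cell, from 10x 3' version 2 libraries per the labels, with Cell Ranger 2.1.1 per the submitters' processing notes. Not given in the sources used here were genome build, annotation, cell filters and clustering method. The authors' UMI totals equal the column sums in 25397 of 25397 cells. Each cell's library was read from the deposited annotation, and 0 columns of other samples were present. Classes, clusters and finer names are the authors'. IL7R, and the lists, were chosen with earlier results of these data known.

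Counts were summed over the cells of a library, class or cluster and divided by the total UMIs there. IL7R ratios use no pseudocount; the ratio of 2 counts has an exact conditional interval, a sum an exact Poisson one and a share an exact binomial (Clopper-Pearson) one, at 95%, for counting error only. Genes were called with 10 CPM added, at 2-fold on both days (or between days) with 50 CPM in a compared library; the caller was tested on simulated data. Symbols of 309 genes came from a reference table. Named genes are IL7R, FOXP3, IL2RA, the 5 most and least like IL7R over libraries, the 5 most like over clusters (mitochondrial and ribosomal protein genes left out), and list members. The 6 pathway lists were interleukin-7 receptor and ligands, kinases and STATs, response and feedback, regulators of IL7R, other gamma chain receptors, and naive genes; 10 marker lists covered T, CD4, Treg, CD8, NK, B, monocyte, dendritic, platelet and red cells.

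All cells were kept and no doublet caller was run. In an alternative, 1194 doublet-like cells were left out (at least 3 UMIs of B cell, monocyte, platelet or red cell markers, or over 2 times the library's median UMIs). Other alternatives were TMM (edgeR 4.0.16) and median-of-ratios factors (DESeq2 1.42.0), both for scaling only, scaling without ribosomal protein, mitochondrial and hemoglobin genes, other pseudocounts, no minimum, per-cell means, thinning, at least 2 UMIs and Spearman correlation. Leaving out cells with shared barcodes was added after the data were seen. Python 3.11.15 and R 4.3.3 were used.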

Additional observations from a re-analysis of the deposited data

Results flagged for a closer look

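The difference in IL7R between the CD127-positive sorts, CD25-positive over CD25-negative, went opposite ways in different cells on both days, and this opposition was not tested. In the authors' Tconv class the log2 ratio was 0.17 on day 3 and 0.23 on day 20, and in the endoTreg class it was -1.18 and -0.12. The endoTreg cells of the CD127-positive CD25-negative sort were 73 and 50, of which 1.37 and 0% had a FOXP3 UMI, and the interval of the day 20 value included 0 (-0.57 to 0.35). In the CD25-positive sort 27.9 and 26.6% of endoTreg cells had a FOXP3 UMI, so the endoTreg ratio compares unlike cells. The ratio of CD25high CD127low endoTreg cells to these 73 and 50 cells also compares unlike cells. It was -1.97 (-2.25 to -1.68) on day 3, wider than between the whole libraries, and -0.70 (-1.12 to -0.25) on day 20. By cluster, CD25-positive over CD25-negative was -0.46 on day 3 and -0.20 on day 20 in cluster 6, and 0.11 and 0.22 in cluster 10, where the day 3 interval included 0 (-0.14 to 0.36). In cluster 7, which had the most cells, it was -0.0076 (-0.081 to 0.066) and 0.0094 (-0.054 to 0.073). Cluster 9 gave -0.18 (-0.33 to -0.040) and 0.099 (-0.022 to 0.22). The positive ratio of the Tconv class was thus not found in each of its clusters.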

How the results depend on the processing

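None of the 22 IL7R ratios run under alternatives changed sign (between whole libraries, and FOXP3-UMI against other cells, the latter not under other scalings). Ratios within a class or cluster and between matched classes were not run under them. With 10 CPM added, the ratios of CFSE-positive cells moved to -4.14 and -3.48 against CD25high CD127low cells (day 3, day 20), -5.15 and -4.60 against CD127-positive CD25-positive and -5.08 and -4.42 against CD127-positive CD25-negative cells, their day ratio to 0.85, and that of FOXP3-UMI cells in the CFSE-positive library of day 3 to -1.22 (-3.46 without doublet-like cells). Per-cell means gave -4.62, -5.65 and -5.56 on day 3 for the 3 comparisons of CFSE-positive cells. For these, TMM gave -5.25, -6.35 and -6.22, median-of-ratios factors -5.25, -6.35 and -6.22, and scaling without ribosomal, mitochondrial and hemoglobin genes -6.21 and -6.12 against the CD127-positive sorts. In the same order of scalings, CD25high CD127low against CD127-positive CD25-positive cells on day 3 gave -1.11, -1.10 and -1.08, and against CD127-positive CD25-negative cells on day 20 -1.02, -1.02 and -1.03. TMM and median-of-ratios factors gave 0.13 and 0.14 between the CD127-positive sorts on day 3. They gave day ratios of 0.080 and 0.072 in CD25high CD127low, 0.16 and 0.15 (0.24 with the restricted scaling) in CD127-positive CD25-positive and 0.12 and 0.13 in CD127-positive CD25-negative cells. The cause of these shifts was not tested.

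Shares thinned to 1000 UMIs, and of cells with at least 2 UMIs, were 1.19 and 0.869% (CFSE-positive), 28.7 and 31.9% (CD25high CD127low), 52.5 and 61.3% (CD127-positive CD25-positive) and 51.0 and 51.1% (CD127-positive CD25-negative) on day 3, and 2.44 and 2.09%, 32.5 and 32.9%, 58.7 and 57.8%, and 54.8 and 51.9% on day 20. Leaving out cells with shared barcodes moved none of 30 values beyond counting error, and leaving out doublet-like cells moved 1 of 30.

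Counts of called genes moved by over 1.5 times under some settings. For CFSE-positive against CD25high CD127low cells, 7 higher genes became 12 with 1 CPM added, 1 with 30 CPM, 3 with TMM and 24 with no minimum, and 23 lower genes became 50 with no minimum. Against CD127-positive CD25-positive cells, 18 higher became 9 (30 CPM), 11 (TMM) and 43 (no minimum) and 25 lower became 51 (no minimum). Against CD127-positive CD25-negative cells, 34 higher became 14, 16 and 70, and 31 lower became 57. For CD25high CD127low against CD127-positive CD25-positive cells, 6 higher became 10 with no minimum and the 1 lower gene, IL7R, became 0 with 30 CPM. Against CD127-positive CD25-negative cells, 13 higher became 8 (30 CPM) and 23 (no minimum) and 12 lower became 21 (no minimum). Between the CD127-positive sorts, 2 higher became 4 and 10 lower became 21 with no minimum. Between days, CFSE-positive cells had 91 higher and 69 lower genes, which became 59 and 33 with 30 CPM and 36 lower with TMM. CD25high CD127low cells had 47 higher and 6 lower, which became 15 and 3 with 30 CPM and 24 higher with TMM. In CD127-positive CD25-positive cells 0 higher became 1 and 2 lower became 4 (no minimum), 8 (1 CPM) or 11 (TMM). In CD127-positive CD25-negative cells 1 higher became 0 (30 CPM) or 2 (no minimum) and 2 lower became 4 (1 CPM).

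Of the 5 genes most like IL7R over libraries, 2 stayed among the 5 by Spearman correlation, as did 0 of the 5 least like and 3 of the 5 most like over clusters. With 1 or 30 CPM added, 3 of the 5 least like stayed. No paired analysis was possible because each population and day gave 1 library. With 163 and 96 IL7R UMIs, the CFSE-positive libraries limit any finer split of transferred cells.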

Other observations

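In the CFSE-positive library of day 3, IL7R was 29.5 CPM in the 1381 cells with the fewest UMIs, 10.9 CPM in the 1380 between and 6.66 CPM in the 1381 with the most. On day 20 the corresponding 383, 383 and 383 cells had 37.0, 28.3 and 32.0 CPM.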
